A study of Capra hircus with 6 samples.

Results

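The inner root sheath is the sleeve of keratinised cells that surrounds the growing hair shaft inside the follicle and breaks down before the hair leaves the skin. It was followed here through a set of 10 genes chosen by name, 7 of which were found by the symbols of the set among 26951 genes. These were KRT25, KRT26, KRT27, KRT74, TCHH and PADI3, under their own gene names, and the placeholder LOC102168573, which the table describes as keratin 28 and which is called KRT28 here. KRT71, KRT72 and KRT73 had no entry under those symbols, but 3 placeholder genes carry the descriptions of keratins 71, 72 and 73 (LOC102177231, LOC102177517 and LOC102176522), and their values are given under the keratin names. All 10 were among the 15778 genes with enough reads to be tested. The values came from total RNA of skin with its hair follicles, freed of ribosomal RNA, in 6 libraries: 3 from black-coated skin (black replicates 1, 2 and 3) and 3 from white-coated skin (white replicates 4, 5 and 6). The animals were crosses of Boer and Macheng Black goats, which have a white body and a black head. The age of the goats, the body site of each sample, the stage of the hair cycle and the number of goats are not given in the labels, so coat colour and site cannot be told apart. The p-values accordingly cover the variation among the sampled libraries alone, part of which may be technical.

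In the inner root sheath, each intermediate filament is built from a type I and a type II keratin in pairs. In human follicles KRT25, KRT27, KRT28 and KRT71 are found in all the layers of the sheath, KRT26, KRT72 and KRT73 in its cuticle, and KRT74 in the Huxley layer. TCHH, trichohyalin, fills the granules of the young sheath cells, and PADI3 turns its arginines into citrulline, after which transglutaminases such as TGM3 link it to the keratins. The sheath exists only around growing hair, and changes in its keratins are known to give curly or woolly coats in several mammals.

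Libraries held between 12648817 and 22085079 reads in genes. Black replicate 1 stood apart from the other 5 in every gene of the sheath, so the fold changes of the sheath genes are given with and without it. The libraries were not all from the same goat: a gene annotated as Y-linked, LOC108634721, was covered by 1, 688 and 0 reads in the black replicates 1 to 3, against 934, 801 and 767 in white replicates 4 to 6. Judged by this gene, sex was not balanced between the groups and is partly confounded with coat colour. Its part in the levels was not tested. The sheath markers were present in all 6 libraries, and 0 of the 10 genes had 0 reads in any of them. The skeletal muscle markers found, 3 of 6 listed, were low. They summed to 5.63 to 6.31 CPM in black-coated skin, against 3.30 to 5.11 CPM in white-coated skin. MYH1, MYH2 and MYH7 were not found. Levels within a gene are given in CPM, a depth-scaled read count with TMM factors. Levels of different genes are compared in FPKM, which is also scaled by transcript length.

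Among the type I keratins KRT25 and KRT27 were the most abundant. KRT25, the main type I partner of the sheath, had 272, 4589 and 5604 CPM in black replicates 1, 2 and 3, against 4367, 5006 and 4436 CPM in white replicates 4, 5 and 6. KRT27, which is made in the same layers, had 133, 1923 and 2397 CPM in the black libraries and 1805, 2234 and 1920.1 CPM in the white ones. For both genes black replicate 1 was far below all the others, and black replicates 2 and 3 lay within or just above the white range.

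The remaining type I keratins were less abundant and less uniform. KRT26, a cuticle keratin, had 12.3, 138 and 142 CPM in black-coated skin, against 174, 191 and 158 CPM in white-coated skin. KRT26 was thus the only member of the 10 whose groups did not overlap. Of all genes tested 4.99% were lower in black-coated skin without overlap and 3.81% were higher. KRT28 had 15.6, 119 and 278 CPM in the black libraries and 195, 287 and 219.9 CPM in the white ones, so black replicate 2 also lay below every white library, while black replicate 3 was close to the highest of them.

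Among the type II keratins KRT71 dominated. KRT71, the type II keratin of all sheath layers, had 329, 6591 and 7556 CPM in black replicates 1, 2 and 3, against 5511, 5742 and 5549 CPM in white replicates 4, 5 and 6. Its white libraries were nearly level (SD 124 on a mean of 5601 CPM, n = 3), and black replicates 2 and 3 both exceeded them. KRT72, a cuticle keratin, showed the same arrangement, with 23.2, 385 and 455 CPM in black-coated skin, against 317, 256 and 254 CPM in white-coated skin.

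KRT73, the other type II cuticle keratin, had 6.31, 195 and 273 CPM in the black libraries and 103, 204 and 209.8 CPM in the white ones. White replicate 4 had the lowest KRT73 level of the 5 libraries other than black replicate 1. KRT74, the Huxley layer keratin, had 21.8, 338 and 529.5 CPM in black-coated skin, against 258, 423 and 329 CPM in white-coated skin, again with white replicate 4 the lowest of the white libraries. Black replicate 3 had the highest level of both genes.

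TCHH had 350.4, 3623 and 7273 CPM in black replicates 1, 2 and 3, against 5780.1, 6249 and 5775 CPM in white replicates 4, 5 and 6. Black replicate 2 was therefore low for trichohyalin as well, although it was not low for KRT25, KRT27 or KRT71. PADI3, the enzyme that acts on trichohyalin, had 11.6, 200.1 and 246 CPM in black-coated skin, against 184, 202 and 224 CPM in white-coated skin. Its level in black replicate 2 lay within the white range, which that of TCHH did not.

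**Figure D1:**
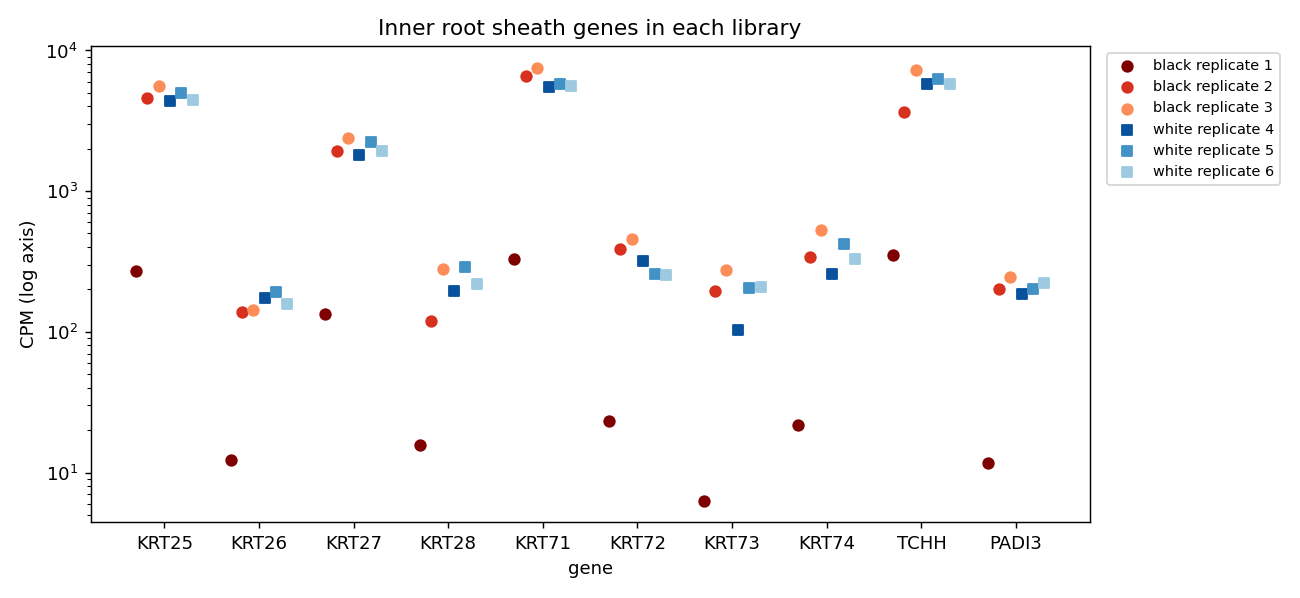
CPM on a log axis for the 10 inner root sheath genes, 1 point per library, with black-coated skin as circles left of white-coated skin as squares. Black replicate 1 is the lowest point of every gene, for example 272 CPM for KRT25 against 4367 to 5604 CPM in the other 5 libraries.

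Summed over the 10 genes, the sheath held 1176, 18102.5 and 24754 CPM in the black replicates 1 to 3, against 18694, 20794 and 19074 CPM in white replicates 4 to 6. Over the 7 genes found by symbol the sums were 817, 10931 and 16469.8 CPM against 12763, 14592 and 13062 CPM. The black libraries other than replicate 1 stood on either side of the white range in both sums. In such bulk samples fewer sheath cells and less RNA per sheath cell cannot be told apart.

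Compared over the groups, 0 of the 10 genes passed edgeR's quasi-likelihood test with Benjamini-Hochberg adjustment over all genes, where 0% of the 15778 genes tested passed and 536 genes (3.4%) had an unadjusted p under 0.05. By DESeq2 0 of the 10 genes and 0.494% of all genes passed, and by limma-voom with library quality weights 0 of the 10 and 0.019%. The means were 3488 ± 2831 CPM in black-coated skin, against 4603 ± 350.5 CPM in white-coated skin for KRT25 (SD, n = 3 each), with a log2 fold change of black over white of -0.40 (SE 0.88). KRT26 had the log2 fold change farthest from 0, at -0.84 (SE 0.75), and KRT72 the only positive one, at 0.06 (SE 0.86). On log2(FPKM + 1) and log2(FPKM + 0.1) with limma KRT72 stood at -0.71 and -0.74, and the median of the 10 genes at -1.16 and -1.20. TCHH stood at -0.66 (SE 0.87), KRT71 at -0.21 (SE 0.91) and PADI3 at -0.41 (SE 0.87). In edgeR the median of the 10 was -0.41, against 0.02 over all genes tested, and each of the 10 had an edgeR adjusted p of 0.999995.

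Most of those negative values changed sign with black replicate 1 left out. Without it, 7 of the 10 log2 fold changes were positive and their median was 0.14, while 0 of the 10 passed edgeR's test, which 0.0999% of all genes passed (0.0874% higher and 0.0125% lower). The count of the 10 was also 0 without black replicate 2, where 0.0369% of all genes passed, and without white replicate 4, where 0.00625% did. Standard errors, which ran from 0.75 for KRT26 to 1.02 for KRT73 with all libraries, ran from 0.15 for KRT26 to 0.36 for KRT28. KRT72 then stood at 0.61 (SE 0.19, unadjusted p = 0.0119, edgeR adjusted p = 0.392), with 385 and 455 CPM in black-coated against 254 to 317 CPM in white-coated skin. KRT71 stood at 0.34 (SE 0.23, adjusted p = 0.665) and KRT26 at -0.32 (SE 0.15, adjusted p = 0.54). KRT71 and KRT72 were higher in black-coated skin without overlap, as were 13.6% of all genes, and KRT26 was lower without overlap, as were 14.5%. Black replicate 3 also moved the values: without it the log2 fold change of KRT28 was -1.79 and that of TCHH -1.57.

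**Figure D2:**
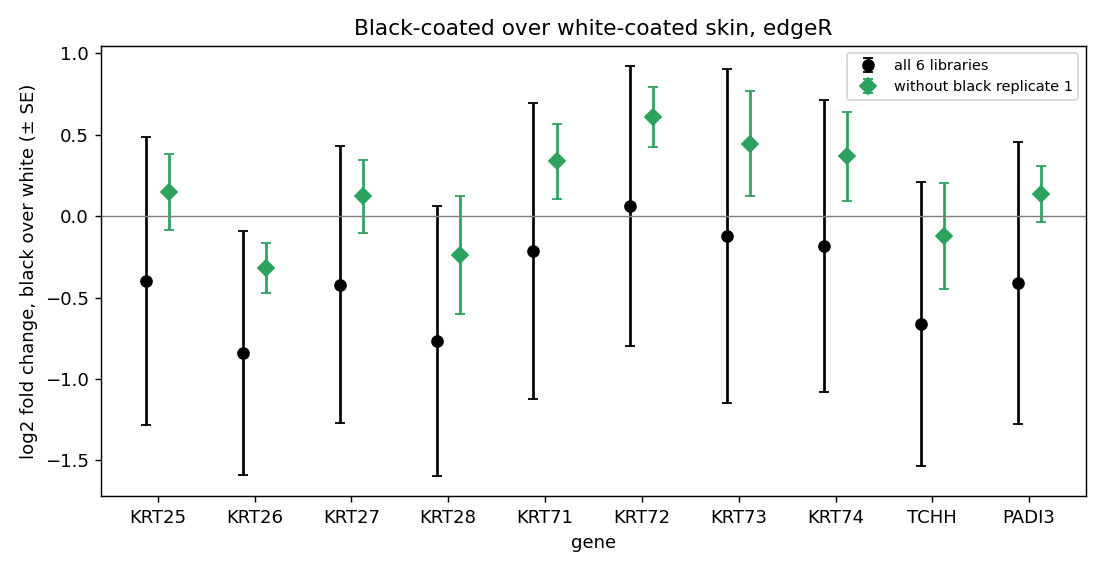
Log2 fold change of black-coated over white-coated skin with its SE for each gene, with all 6 libraries (circles) and without black replicate 1 (diamonds). With all libraries 9 of 10 values lie below 0, and without black replicate 1 7 of 10 lie above it, none of them past the test.

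Black replicate 1 was low in all sheath genes. Its log2 CPM minus the mean of the other 5 libraries had a median of -4.03 over the 10 genes, with gene values between -4.88 for KRT73 and -3.68 for KRT26. Of all genes tested 221 (1.4%) lay as far down as KRT26 or farther, and the median of all genes was 0.03. Against the median of the other 5 libraries, KRT26 was 12.8-fold lower and KRT71 17.4-fold lower, while KRT73, with 89 reads in black replicate 1, was 32.3-fold lower. All 10 genes had their lowest level in that library, as did 30.3% of all genes tested.

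With lengths taken into account, KRT25 and KRT71 were nearly equal and far above the cuticle and Huxley layer keratins. Over the 6 libraries KRT25 averaged 1963 FPKM, KRT71 1794, KRT27 909.7 and TCHH 698 FPKM, and this order held in 6 of 6 libraries. KRT72 followed at 115 and KRT74 at 91.6 FPKM, in this order in 5 of 6 libraries. KRT28, KRT26, KRT73 and PADI3 averaged 68.4, 62.3, 58.2 and 44.9 FPKM. Of these KRT28 exceeded KRT26 in 3 of 6 libraries, KRT26 exceeded KRT73 in 3, and KRT73 exceeded PADI3 in 4, so the order of these last genes changed from library to library.

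The make-up of the sheath keratins was similar in all libraries, black replicate 1 included. KRT25 made up between 37.7% and 40.1% of the summed FPKM of the 8 keratins, KRT71 between 32.7% and 37.5%, and KRT27 between 17.2% and 20.002%, whereas the remaining 5 each stayed between 0.639% and 2.84%. Type I keratins together took 61.8%, 57.0% and 57.4% in the black replicates 1 to 3, against 60.0%, 62.3% and 60.3% in white replicates 4, 5 and 6. The means were 58.7% ± 2.66 in black-coated skin, against 60.9% ± 1.26 in white-coated skin (SD, n = 3 each), a difference of -2.19 percentage points. The groups overlapped only through black replicate 1, and without it the difference was -3.72 points and both black libraries lay below every white one. The ratio of KRT25 to KRT71 in FPKM ran from 1.005 in black replicate 2 to 1.22 in white replicate 5, and that of KRT27 to KRT25 from 0.452 in white replicate 4 to 0.519 in black replicate 1.

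**Figure D3:**
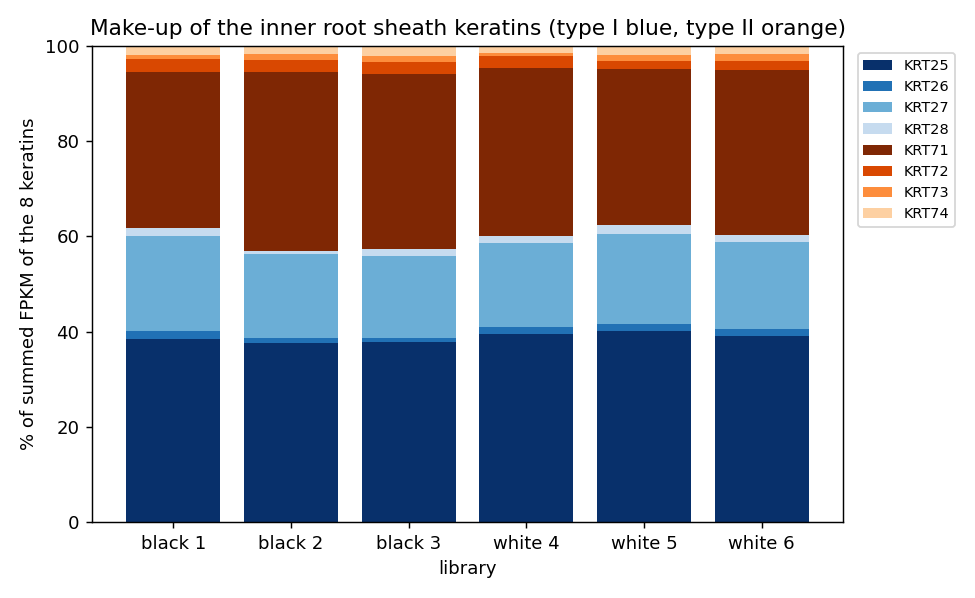
Stacked bars of the percentage of the summed FPKM that each of the 8 inner root sheath keratins holds, 1 bar per library, type I in blue and type II in orange. The boundary between the types lies between 57.0% and 62.3% in all 6 libraries, including black replicate 1.

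Some genes did depart from the shared profile. In the 5 libraries other than black replicate 1, each gene's log2 CPM was centred and set against the median profile of the 10 genes. KRT27 and KRT25 stayed closest to it, with an SD of 0.04 and 0.05 log2 units, followed by PADI3 at 0.12 and KRT71 at 0.15. KRT28 had an SD of 0.41 and KRT73 of 0.40. The largest departures were those of KRT28 in black replicate 2, at -0.74 log2 units, and of KRT73 in white replicate 4, at -0.73. TCHH lay at -0.55 in black replicate 2, KRT26 at -0.51 in black replicate 3, and KRT72 at -0.46 in white replicate 5.

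Keratins placed in the same layer in human follicles did not always depart together. Of the cuticle keratins, KRT73 was low in white replicate 4 while KRT72 in that library stood at 0.11 and KRT26 at 0.27 log2 units from the median profile. In black replicate 2 the low genes were KRT28 and TCHH, whereas KRT72 stood at 0.33. The ratio of TCHH to KRT71 in FPKM was 0.222 in black replicate 2, against 0.394 to 0.451 in the other 5 libraries, black replicate 1 among them. For PADI3 to TCHH it was 0.102 in black replicate 2 and between 0.0569 and 0.0675 elsewhere. The departures of KRT28 and TCHH in black replicate 2 and of KRT73 in white replicate 4 were each seen in 1 library and have no replicate check. For KRT72, white replicate 6 was also low, at -0.30, and for KRT26 black replicate 2 stood at -0.13.

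**Figure D4:**
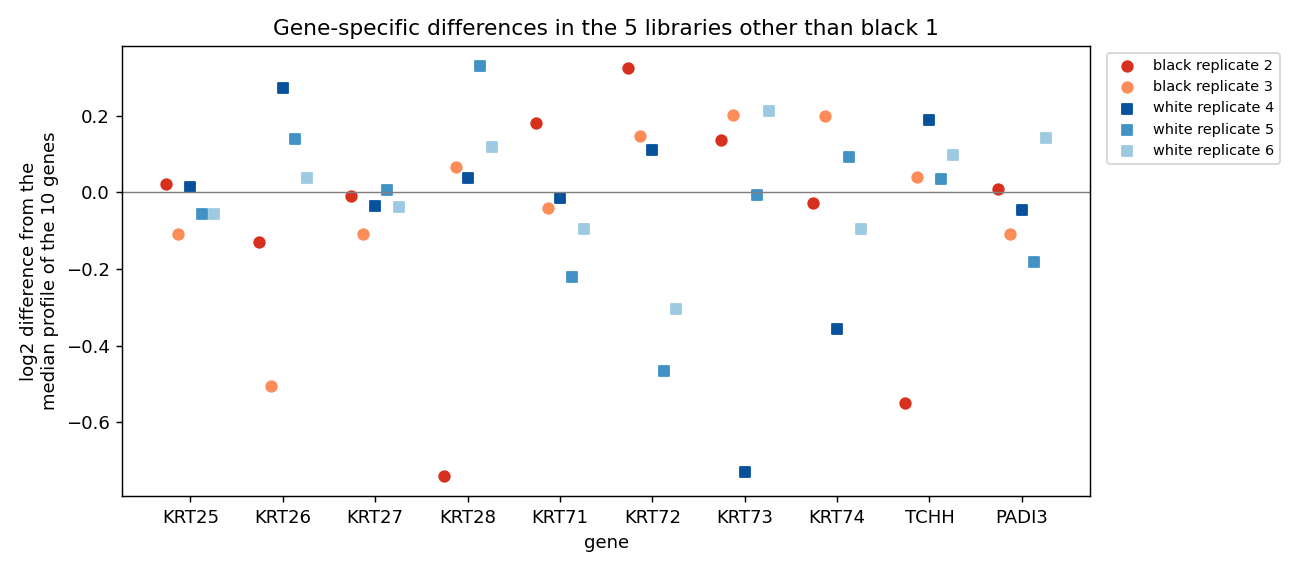
Difference of each gene's centred log2 CPM from the median profile of the 10 genes, in log2 units, in the 5 libraries other than black replicate 1. KRT25 and KRT27 keep within 0.11 units of 0, and the lowest points are KRT28 in black replicate 2 and KRT73 in white replicate 4.

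TCHH was listed with 10 transcripts whose read counts were almost the same, the lowest being 99.99% of the highest, and the counts therefore do not separate the transcripts. The deposited FPKM were divided between these transcripts, and not in the same way in each library. Transcript X10 held 38.2%, 77.5% and 19.3% of the summed FPKM in the black replicates 1 to 3, against 21.2%, 44.0% and 48.5% in white replicates 4, 5 and 6. X7 held 47.4%, 7.18% and 25.4% in the black and 33.8%, 30.6% and 26.6% in the white libraries. X1 held 19.9% in black replicate 3 and 6.50% in white replicate 4, and at most 0.00192% in the other 4 libraries. For X10, X7 and X1 the groups overlapped, and only sums over transcripts are used above for levels per length. How far such shares reflect different transcripts was not tested.

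In the ARS1.2 assembly of the goat genome, matched by transcript identifier for 10 of 10 genes, KRT25, KRT26, KRT27 and KRT28 are neighbours on chromosome 19, with KRT24 before and KRT10 after them. On chromosome 5, KRT73, KRT72, KRT74 and KRT71 stand side by side between KRT2 and KRT5. The flanking keratins are known from other layers of skin and follicle. KRT10, of the suprabasal epidermis, had 90.8, 25.9 and 36.2 CPM in black replicates 1, 2 and 3, against 670.2, 386 and 139 CPM in white replicates 4, 5 and 6. The groups did not overlap for KRT10, and its lowest library was black replicate 2, not black replicate 1. Its log2 fold change was -2.97 (SE 0.70, edgeR adjusted p = 0.999995), and -3.68 (SE 0.76, edgeR adjusted p = 0.333) without black replicate 1. KRT5, the basal keratin, had 929, 3092 and 4229 CPM in black-coated skin, against 4596, 2692 and 2317 CPM in white-coated skin, and black replicate 1 minus the mean of the others was -1.82 log2 units for KRT5, against -4.22 for KRT71 beside it. KRT24 and KRT2 were low throughout, at 2.21 to 5.74 and 3.12 to 10.1 CPM in black-coated skin, and 1.94 to 10.8 and 6.59 to 10.7 CPM in white-coated skin.

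TCHH lies between TCHHL1 and RPTN, relatives that like it join a calcium-binding S100 domain to a long repetitive tail. TCHHL1 had 3.12, 61.1 and 185 CPM in the black libraries and 225, 116 and 130.4 CPM in the white ones, and black replicate 1 stood at -5.36 log2 units from the mean of the others, against -4.00 for TCHH. RPTN, repetin, had 3.41, 17.4 and 63.2 CPM against 10.9, 66.7 and 41.4 CPM. The third relative found, CRNN, had a log2 fold change of -2.30 (SE 0.75, edgeR adjusted p = 0.999995), and of -1.82 (SE 0.55, edgeR adjusted p = 0.418) without black replicate 1. Of the 6 listed relatives 3 were found and tested, and 0 passed.

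PADI3 has PADI1 and PADI4 as neighbours on chromosome 2. PADI1, another deiminase of skin, had 3.41, 35.8 and 56.7 CPM in black-coated skin, against 43.3, 48.4 and 58.7 CPM in white-coated skin, with black replicate 1 at -3.79 log2 units. PADI4 had 12.98, 10.97 and 10.3 CPM in the black libraries and 16.5, 12.3 and 18.4 CPM in the white ones, with black replicate 1 at -0.04 log2 units. Among transglutaminases TGM3, the follicle enzyme that links trichohyalin, had 22.8, 553 and 500.2 CPM in black replicates 1, 2 and 3, against 378, 328 and 323 CPM in white replicates 4, 5 and 6. Black replicate 1 stood at -4.15 log2 units for TGM3, within the range of the sheath genes. TGM5 had the lower values in black-coated skin, at 28.3 ± 8.14 against 61.5 ± 8.01 CPM (SD, n = 3 each; log2 fold change -1.12, SE 0.25, unadjusted p = 0.00309, edgeR adjusted p = 0.999995). Without black replicate 1 its log2 fold change was -1.23 (SE 0.26, edgeR adjusted p = 0.242). Of the 8 crosslinking and deiminating enzymes 0 passed, and 3 of 8 had their lowest level in black replicate 1, as did 30.3% of all genes tested. Another 2 of 8 had their highest level there, and the median of the 8 in that library was -0.22 log2 units.

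Transcription factors and receptors known from mouse to act in the differentiation of the sheath and the shaft were counted next. Of 13 such genes 13 were tested, 0 passed in either direction, and the median log2 fold change was -0.32 with all libraries and 0.16 without black replicate 1. The 3 most abundant were DLX3, FOXN1 and KLF4. DLX3, a homeobox factor of the follicle matrix, had 15.4, 310.01 and 354 CPM in black-coated skin, against 217, 294 and 403 CPM in white-coated skin. FOXN1, the factor missing in nude mice, had 16.9, 408 and 396 CPM in the black libraries and 229, 278 and 285 CPM in the white ones. Black replicate 1 had a median of -2.88 log2 units over the 13 genes, with gene values between -4.32 and -0.47. It stood at -4.32 for DLX3 and -4.20 for FOXN1, within the range of the sheath genes, and at -1.53 for KLF4. GATA3, needed for the sheath in mouse and named here after its values were seen, stood at -2.04.

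The layers around the sheath were not equally low in black replicate 1. Hair shaft keratins, of which 8 of 14 listed were found, had a median of -4.14 log2 units there, and their abundant members KRT35, KRT82 and KRT85 stood at -4.57, -4.69 and -4.05. The 8 spread more widely than the sheath genes, from -5.26 to -1.95. The companion layer, between the inner and outer sheaths, had a median of -2.28 over 4 genes, with KRT75, its type II keratin, at -3.97. KRT6A and KRT17, which the outer root sheath also makes, stood at -2.46 and -1.98. KRT15, KRT17, KRT75 and KRT85 were found by the descriptions of placeholder genes. Copies of KRT6 are nearly identical, so reads may be split between them. Outer root sheath and basal layer genes had a median of -1.19: KRT14 stood at -2.01, but KRT15 at -0.04 and KRT19, named after its values were seen, at 1.69. KRT15, a keratin of the outer sheath, the bulge and basal cells, had 607, 484 and 769.7 CPM in black replicates 1, 2 and 3 against 1260.3, 463 and 435 CPM in white replicates 4, 5 and 6. Desmosome and envelope genes had a median of -2.13 over 14 genes, with DSP at -2.15, JUP at -2.07 and DSG1 at -2.36. None of the genes of these 4 lists passed edgeR's test, with all libraries or without black replicate 1.

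**Figure D5:**
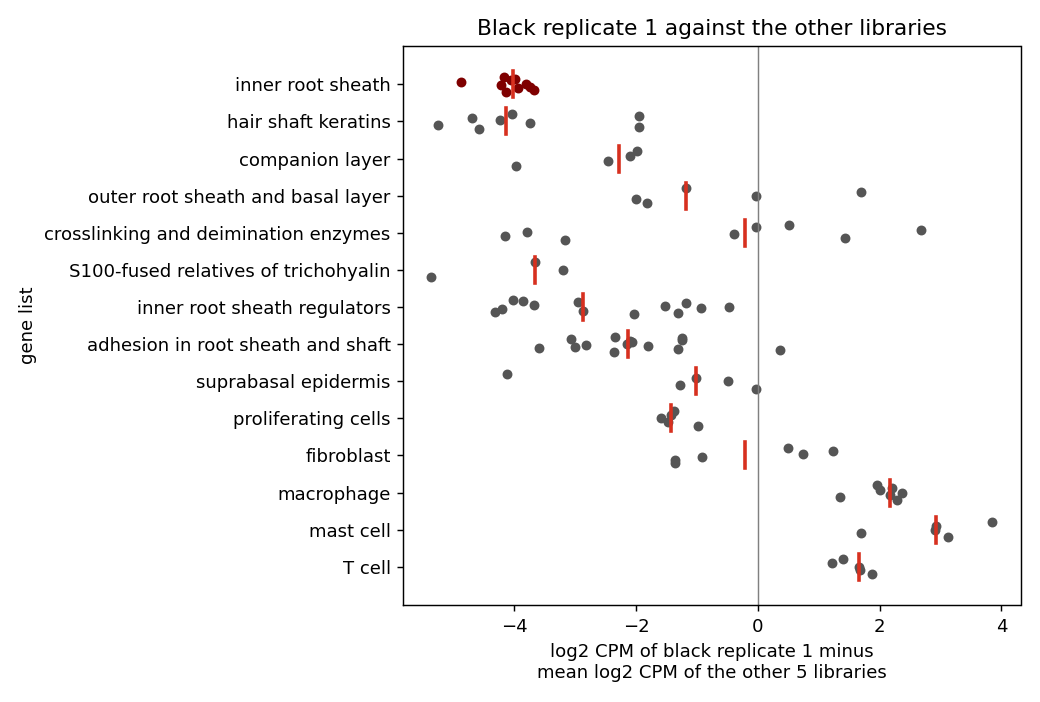
Log2 CPM of black replicate 1 minus the mean log2 CPM of the other 5 libraries, 1 point per gene, with the median of each list as a red bar. The inner root sheath genes lie together between -4.88 and -3.68, and the macrophage, mast cell and T cell markers lie above 0.

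Beside the sheath, shaft keratins did not keep step with it across the other libraries. The mean relative log2 level of the 10 sheath genes minus that of the 8 shaft keratins was -0.21, -0.60 and 0.03 in the black replicates 1 to 3, against 0.47, 0.29 and 0.02 in white replicates 4, 5 and 6. The groups overlapped only in that black replicate 3 lay just above white replicate 6. Shaft keratins summed to 222, 5313 and 4660 CPM in the black and 2202, 3487 and 3574 CPM in the white libraries. Their median log2 fold change was 0.18, and 0.73 without black replicate 1, with 0 of 8 passing in either fit, and the difference between the lists was not tested.

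Markers of some other cells had their highest or lowest levels in black replicate 1. All 7 macrophage markers found of 8 listed had their highest level there, as did 4788 of the 15778 genes tested. These markers summed to 1121, 506 and 171 CPM in the black replicates 1 to 3, against 257, 253 and 252 CPM in white replicates 4 to 6. All 5 mast cell markers also had their highest level there, summing to 326, 58.2 and 57.1 CPM in the black and 97.0, 71.4 and 39.0 CPM in the white libraries. The 5 T cell markers summed to 52.6, 8.25 and 11.99 CPM against 40.5, 20.1 and 18.1 CPM, and the 3 tested markers of B and plasma cells to 58.3, 6.17 and 39.4 CPM against 17.6, 9.63 and 8.57 CPM. All 5 proliferation markers had their lowest level in black replicate 1, as did 30.3% of all genes tested. The sums of these markers were 133, 446 and 338 CPM in black-coated skin, against 216, 362 and 315 CPM in white-coated skin. Fibroblast markers were divided in black replicate 1. Its levels of DCN, LUM and PDGFRA, all named after their values were seen, at 4812, 1344 and 354 CPM, were the highest of the 6 libraries, whereas it was highest for none of the 3 collagens. All 6 markers, mostly collagen by level, summed to 39136, 143894 and 23711 CPM in the black and 61109.5, 120284 and 139413 CPM in the white libraries, and their sum was lowest in black replicate 3, where the sum of the sheath genes was highest. Every tested marker of these lists had reads in all 6 libraries. Their part in the sheath levels was not tested.

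Suprabasal and melanocyte genes did not, as lists, follow the sheath genes across the libraries, but IVL did in black replicate 1. It had 9.15, 156 and 155 CPM in the black replicates 1 to 3, against 214, 138 and 149 CPM in white replicates 4 to 6. Black replicate 1 stood at -4.12 log2 units for IVL, within the range of the sheath genes, but at -0.03 for KRT1 and -0.49 for KRT10. Of 5 suprabasal epidermis genes 5 had a negative log2 fold change (median -2.58, and -2.76 without black replicate 1), the most abundant being KRT10, KRT1 and IVL. However, 0 of the 5 passed and 2 had their lowest level in black replicate 1, as did 30.3% of all genes tested. Melanocyte markers summed to 36.3, 837 and 989.7 CPM in the black replicates 1 to 3, against 6.15, 4.88 and 3.83 CPM in white replicates 4, 5 and 6, so that black replicate 1 lay between the other black libraries and the white ones. PMEL, a melanosome protein, had 15.7, 476 and 498 CPM in the black and 4.10, 2.35 and 2.62 CPM in the white libraries. With all libraries 0 of 5 melanocyte markers passed edgeR's test. With black replicate 1 left out, 5 of 5 melanocyte markers and 0 of 10 sheath genes passed edgeR's test, which 0.0999% of all genes passed.

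Across all genes with a mean of at least 1 CPM, the 10 whose profile over the 6 libraries was most like the median sheath profile included ACTBL2, GSDMA, PRR9, HEPHL1, DAPL1, DLX2, KRT23, FAM25A and DLX1. Likeness was the root mean square difference of centred log2 CPM, which was 0.11 log2 units for ACTBL2 and 0.21 for DLX1. Among the sheath genes, which themselves set the median profile, it was 0.06 for KRT25 and 0.45 for KRT73. ACTBL2, described as a beta-actin-like protein, had 7.59, 123 and 198 CPM in black-coated skin, against 115, 143 and 125 CPM in white-coated skin. GSDMA, gasdermin A, a protein of differentiating epithelium, had 21.7, 278 and 364 CPM in the black libraries and 249.9, 347 and 332 CPM in the white ones. PRR9, a small proline-rich protein, was the most abundant of the 10, at 199.5, 3412 and 4498 CPM against 2474, 3171 and 3089 CPM. Over the 5 libraries without black replicate 1 these distances were similar, at 0.12 for ACTBL2, 0.12 for GSDMA, 0.11 for HEPHL1 and 0.23 for DLX1. Many other genes were then closer, so that ACTBL2, GSDMA, HEPHL1 and DLX1 ranked only 498, 506, 392 and 4185. The 10 nearest lay between 0.04 and 0.06, and 0 of the 10 most similar genes over 6 libraries were among them.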

How the data were processed

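The authors deposited 1 table of 53266 transcripts with, for each of the 6 libraries, a read count and an FPKM value, per the file headers. HISAT2, Cufflinks and Bowtie2 2.0.6 are listed, with no role, per the submitters' processing notes. Which program counted reads, on which build and annotation and with what strand setting is not given in the sources used here. Rows without a gene name (189, holding 0.00376% to 0.0675% of reads by library) and transfer RNA rows (1770) were left out of totals and tests. For each gene the transcript with the largest total count was used, without summing transcripts, since reads are repeated between transcripts. FPKM values, which the authors divided between transcripts, were summed per gene and used for levels between genes.

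Counts were tested for black over white with edgeR 4.0.16 (filterByExpr, TMM, robust quasi-likelihood, group only), with Benjamini-Hochberg adjustment over the 15778 genes tested and a threshold of 0.05. log2 CPM used a prior count of 1. Alternatives used limma 3.58.1, on counts and on log2(FPKM + 1), and DESeq2 1.42.0. The edgeR step was tested on simulated data in which no library stood apart, unlike black replicate 1. It called 3 of 50 genes changed 2-fold, 32 of 50 changed 4-fold and 47 of 50 changed 16-fold. Of 15320 unchanged genes it called 12. Depth was 12648817 to 22085079 reads in genes and the biological coefficient of variation 37.3%.

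The members and the gene lists were chosen with earlier results of these data known. The text names all 10 members, from each list the 3 genes of highest mean CPM and any gene called, the direct neighbours of the members, and the 10 genes most like the members' median profile (mean of at least 1 CPM, no placeholder names), 1 of which is not reported here. Neighbours come from RefSeq's ARS1.2 annotation, used for names and order only, as the build of the files is not known. No sequences are shown.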

Additional observations from a re-analysis of the deposited data

How the results depend on the processing

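The count of 0 inner root sheath genes past the test held at every setting run. Over all genes the count of 0 became 78 with DESeq2 and 3 with limma-voom with library quality weights, and ran from 0 to 16 with 1 library left out (16 without black replicate 1, 6 without black replicate 2, 1 without white replicate 4); the cause was not tested. Directions depended on single libraries: of 60 log2 fold changes of the 10 genes with 1 library left out, 49 kept their sign and 11 did not. These values ran from -0.91 to 0.15 for KRT25, -1.21 to -0.32 for KRT26, -0.94 to 0.12 for KRT27, -1.79 to -0.24 for KRT28, -0.69 to 0.34 for KRT71, -0.42 to 0.61 for KRT72, -0.76 to 0.45 for KRT73, -0.89 to 0.37 for KRT74, -1.57 to -0.12 for TCHH and -0.93 to 0.14 for PADI3. At the other settings 88 of 90 values kept their sign, and KRT72 turned to -0.71 on log2(FPKM + 1) and -0.74 on log2(FPKM + 0.1). With limma on these log2 values the median of the 10 genes was -1.16 and -1.20, against -0.41 in edgeR. These settings differ from edgeR both in the measure and in averaging log2 values, and the parts of the 2 were not tested. The type I share, black minus white, was -2.19 percentage points by FPKM and -2.41 by CPM, and ran from -3.72 to -1.33 with 1 library left out. Of the 10 genes most like the sheath profile, 0 were kept in the 5 libraries without black replicate 1. No paired analysis was run, since the labels do not say which goat each library came from. Black replicates 1 and 3, with 1 and 0 reads of the Y-linked gene, did not share a goat with any white library. The white libraries had 767 to 934 such reads. SEs of the 10 genes were 0.75 to 1.02 log2 units with all libraries and 0.15 to 0.36 without black replicate 1, and the lowest count was 89 reads, for KRT73 in black replicate 1.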
